A study of Mus musculus with 40 samples.

Results

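The insulin-like growth factor family was followed in mouse sWAT, the subcutaneous white adipose tissue. Its 9 members were the rows of the count table with the symbols Igf1, Igf2, Igf1r, Igfbp2, Igfbp3, Igfbp4, Igfbp5, Igfbp6 and Igfbp7, and all 9 were found among the 34843 symbols of the table. Of these 9, 7 passed the filter on low counts and were tested together with 15807 genes in all. The samples fall into 5 groups of 8 libraries: mice fed a high-fat diet (HFD) and given tirzepatide, HFD-fed mice given semaglutide, mice moved off HFD onto ND (the diet switch), HFD-fed mice, and mice on ND, which the labels do not spell out. Semaglutide is a lipidated peptide agonist of the receptor of glucagon-like peptide 1. Tirzepatide is a dual agonist of that receptor and of the GIP receptor. Mice of the 4 groups other than ND had all been fed HFD. The stated question was which genes the incretin analogs restore and which stay deregulated. The labels give no dose, duration, strain, sex or age, so whether the agents were compared at matched exposure is not known here. The series title speaks of a dietary intervention after incretin analog treatment, and the labels of the diet-switch mice name no drug. The labels do not say that the 8 samples of a group are separate animals, so p-values reflect only how much these samples vary, and that variation may be technical.

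Insulin-like growth factors are secreted peptides related to insulin that act through the receptor tyrosine kinase IGF1R, and the IGF-binding proteins hold them in the circulation and in the matrix, prolong their life and limit or direct their access to the receptor. IGF1 is made in liver and, in response to growth hormone, also in fat, where IGF signalling is known for its part in preadipocyte proliferation and differentiation. Proteases that cut the binding proteins release the growth factors.

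Promoters are shown for the 3 members that changed between tirzepatide and HFD, of which Igfbp3 and Igfbp7 were lower and Igf1r was higher with tirzepatide. The sequences are RefSeq's for GRCm38.p6, from 250 bases before to 50 bases after the annotated start, 5′ to 3′ on the gene's strand, and all 9 members had an entry. Capitals mark matches, on either strand, to any of 5 motifs. The TATA box was searched as TATAAA and the GC box, bound by Sp1-like factors, as GGGCGG. The core bound by forkhead factors of the FOXO group was searched as GTAAACA. The E-box of basic helix-loop-helix factors was searched as CACGTG, and the element bound by nuclear factor Y, here called the CCAAT box, by the letters of its name. None of the 5 motifs lies within another.
Igfbp3, chr11:7213874-7214173, minus strand: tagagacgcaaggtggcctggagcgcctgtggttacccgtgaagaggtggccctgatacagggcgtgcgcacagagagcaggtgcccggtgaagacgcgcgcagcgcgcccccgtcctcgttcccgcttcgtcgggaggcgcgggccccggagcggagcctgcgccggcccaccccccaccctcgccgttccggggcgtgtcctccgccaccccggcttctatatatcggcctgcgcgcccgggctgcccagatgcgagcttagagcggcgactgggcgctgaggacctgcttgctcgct
Igfbp7, chr5:77407996-77408295, minus strand: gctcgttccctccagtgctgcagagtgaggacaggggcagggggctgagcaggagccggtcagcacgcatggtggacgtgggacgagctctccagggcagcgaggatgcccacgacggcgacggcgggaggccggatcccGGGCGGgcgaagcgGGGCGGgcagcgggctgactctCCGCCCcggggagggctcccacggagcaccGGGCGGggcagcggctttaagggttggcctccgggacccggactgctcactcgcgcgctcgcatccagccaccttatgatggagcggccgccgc
Igf1r, chr7:67952007-67952306, plus strand: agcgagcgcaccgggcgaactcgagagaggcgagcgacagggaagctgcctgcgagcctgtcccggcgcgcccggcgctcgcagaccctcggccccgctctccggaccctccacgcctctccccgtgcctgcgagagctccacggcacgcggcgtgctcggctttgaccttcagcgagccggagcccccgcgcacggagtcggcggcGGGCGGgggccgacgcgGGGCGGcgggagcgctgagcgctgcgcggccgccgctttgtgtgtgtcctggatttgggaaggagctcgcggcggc
The annotated RefSeq start of Igf1r lies before the GENCODE start used for the coordinates given next. The Igfbp3 window was 71.7% G and C and held no match to any of the 5 motifs. The Igfbp7 window was 73.3% G and C with 4 GC boxes, and the Igf1r window was 76% G and C with 2 GC boxes. Across the 32851 windows of the table the median G and C content was 52.7%, and 35.7% held a GC box, 13.6% a TATA box, 37.4% a CCAAT box, 3.65% the FOXO core and 7.15% the E-box. No window of any member held the FOXO core. These matches describe the letters only.

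In GENCODE M21 (GRCm38, the assembly that the submitters' notes call mm10), Igfbp3 lies on chromosome 11 from 7206086 to 7213923 on the minus strand, and Igfbp4 on the same chromosome from 99041244 to 99054392 on the plus strand. Igfbp2 (chromosome 1, 72824503 to 72852474, plus strand) and Igfbp5 (72857932 to 72874884, minus strand) face each other tail to tail with 5.46 kb between them. Igf1 lies on chromosome 10 (87858265 to 87937042, plus strand), Igf1r on chromosome 7 (67952827 to 68233668, plus strand), Igf2 on chromosome 7 (142650766 to 142666816, minus strand) and Igfbp6 on chromosome 15 (102144362 to 102149511, plus strand). Igfbp7 (chromosome 5, 77349240 to 77408041, minus strand) overlaps the end of Polr2b, a subunit of RNA polymerase, by 85 bases. Whether the counting used strand is not given in the sources used here, so reads in this overlap cannot be told apart. Polr2b differed between tirzepatide and HFD by a log2 fold change of 0.04 ± 0.20 (SE, edgeR adjusted p = 0.913). The antisense genes Gm34648 over Igfbp7 and Igf1os over Igf1 had 218 and 99 counts over the 40 libraries.

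QuantSeq libraries give about one read per transcript end, so CPM, the counts scaled to a common library size, do not scale with transcript length and can be set beside each other between genes. Library totals were 2115471 to 7445548 counts (median 3765320). Adipocyte markers were abundant in all 5 groups, with 7 of 7 detected and a summed level of 10921 to 16688 CPM with tirzepatide, 9221 to 18275 with semaglutide, 10436 to 17410 after the switch, 16331 to 22182 on HFD and 7028 to 15007 on ND. Mesothelial and epithelial markers stayed at or under 20.5 CPM in sum, and the defining genes Wt1 with semaglutide, Upk3b after the switch and Krt14 on ND were at 0. Of the 40 libraries, 10 were high in skeletal muscle markers (tirzepatide 1, 4, 5 and 7, diet switch 1, 3 and 6, HFD 4, ND 6 and 8) and 4 in B cell markers (semaglutide 1, 3 and 8, ND 5), with a mean over the markers above 5 log2 CPM. Diet-switch libraries 3, 4 and 7 scored above 50 on an axis of within-group variation. This axis is the first singular vector of log2 CPM of the tested genes with group means removed, and held 11.6% of that variance. The scores themselves keep group differences. In bulk tissue, fewer cells of a type and less RNA per cell cannot be told apart.

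The members spanned a wide range of abundance. Igfbp4 was the most abundant at a mean of 1178 CPM over the 40 libraries, followed by Igfbp5 at 385, Igf1 at 307, Igfbp7 at 225, Igf1r at 102, Igfbp6 at 83.7 and Igfbp3 at 12.3 CPM. These 7 were detected in 40 of 40 libraries. Igf2, the fetal growth factor of the family, had 4 counts in all, 1 in a semaglutide library and 3 in an ND library. Igfbp2, a binding protein known from preadipocytes and liver, had 20 counts in all: 0 with tirzepatide, 10 with semaglutide, 0 after the switch, 2 on HFD and 8 on ND. Semaglutide library 1 held 6 of the 10, and its B cell-high libraries 1, 3 and 8 together held all but 1. A sum of 0 in a group allows up to 0.0919 CPM with tirzepatide and 0.1 CPM after the switch (3 counts over the group's total, counting error only). Neither Igf2 nor Igfbp2 was tested, and differences between groups in these genes were not detectable at this depth.

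**Figure D1:**
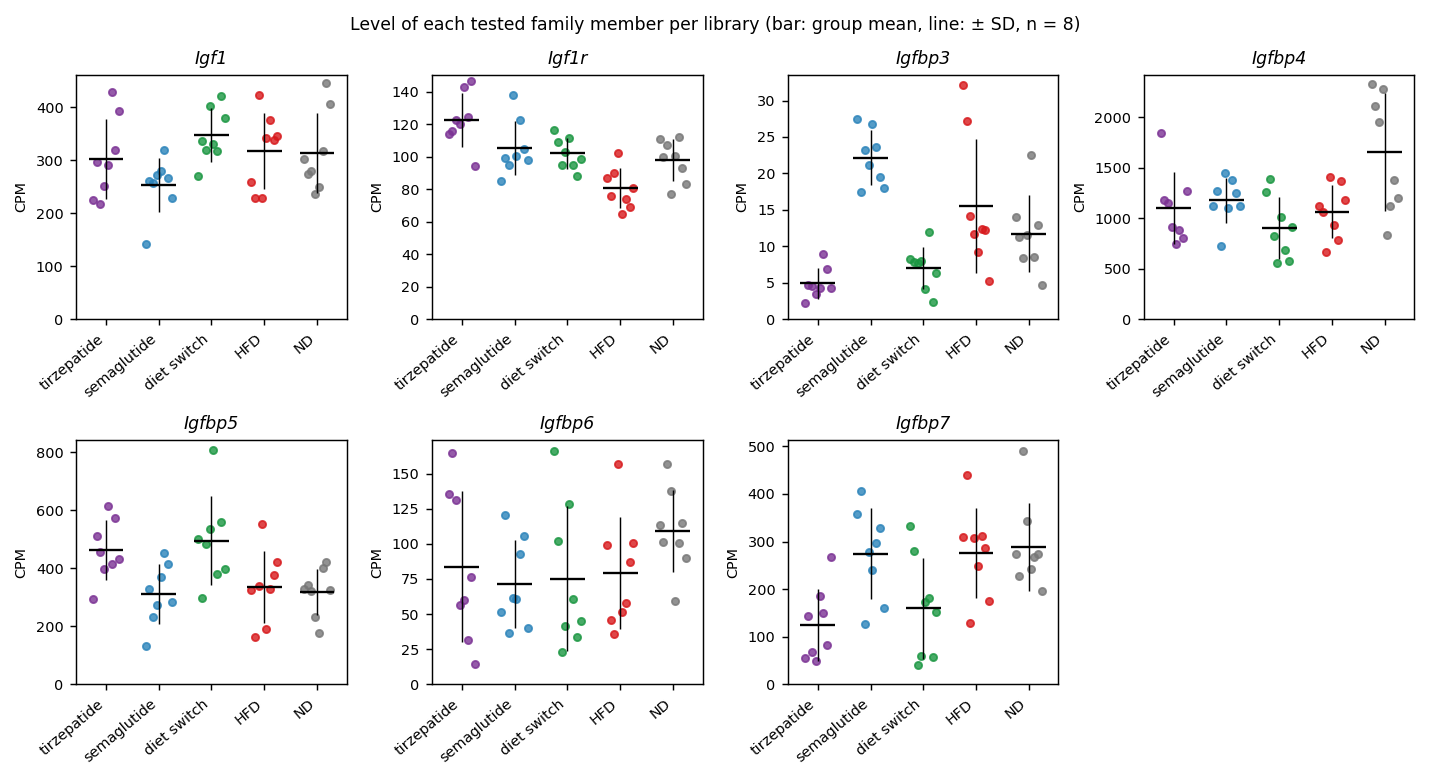
CPM of the 7 tested members in each of the 40 libraries (y axis, linear, 1 panel per gene) by group (x axis), with points for libraries, bars for group means and lines for ± SD, n = 8. The 8 tirzepatide libraries lie between 2.15 and 8.92 CPM for Igfbp3 and the 8 semaglutide libraries between 17.4 and 27.5 CPM.

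Against HFD, the treated groups shared a call in the receptor and differed in the binding proteins called. With tirzepatide against HFD, Igf1r rose and Igfbp3 and Igfbp7 fell, so 3 of 7 tested members passed an edgeR adjusted p of 0.05, against 20.5% of all genes tested. With semaglutide against HFD, Igf1r rose and 1 of 7 members passed, against 4.15% of all genes. After the switch against HFD, Igf1r rose and Igfbp3 fell, and 2 of 7 members passed, against 23.8% of all genes. These 3 comparisons share the 8 HFD libraries. Of the 7 adipocyte markers, Cidec, Fabp4 and Lep fell with tirzepatide against HFD (median of the 7 log2 fold changes -0.66), Cidec fell with semaglutide (median -0.05), Cidec and Lep fell after the switch (median -0.16), and none rose by edgeR in these comparisons. Of 8 pericyte and smooth muscle markers, all detected in each group, 1 fell with tirzepatide, 2 with semaglutide and 2 after the switch, and none rose by edgeR; they summed to 400 to 608, 347 to 899 and 477 to 821 CPM in these groups, against 776 to 1194 CPM on HFD. The part of these markers in the member and pathway differences was not tested.

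HFD against ND changed none of the 7 members by the edgeR test, against 4.5% of all genes called. There, 2 members had an unadjusted p under 0.05, and DESeq2 called 1 (Igfbp4) and limma-voom 2 (Igfbp4 and Igf1r). The adipocyte markers Cidec, Fabp4 and Lep rose on HFD against ND and none of the 7 fell by edgeR (median 0.08).

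Against ND, Igfbp3 and Igfbp7 fell with tirzepatide, so 2 of 7 members passed where 10.1% of all genes did. Semaglutide against ND gave 0 of 7 by edgeR against 2.64% of all genes, with 2 members at an unadjusted p under 0.05 and 1 call each (Igfbp3) by DESeq2 and limma-voom. After the switch, Igfbp5 rose and Igfbp4 fell against ND, and 2 of 7 passed against 14.8% of all genes.

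Between treatments, Igfbp3 and Igfbp7 were lower with tirzepatide than with semaglutide, and 2 of 7 members passed against 10% of all genes. Semaglutide against the switch called 3 of 7 members, Igfbp3 higher and Igf1 and Igfbp5 lower with semaglutide, against 13.3% of all genes. Tirzepatide against the switch called 0 of 7 by edgeR, DESeq2 and limma-voom, with 1 member at an unadjusted p under 0.05 (Igf1r), against 0.399% of all genes. The median log2 fold change over the 7 members lay between -0.54 (switch against ND) and 0.22 (tirzepatide against semaglutide), and over all genes between -0.04 and 0.05.

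**Figure D2:**
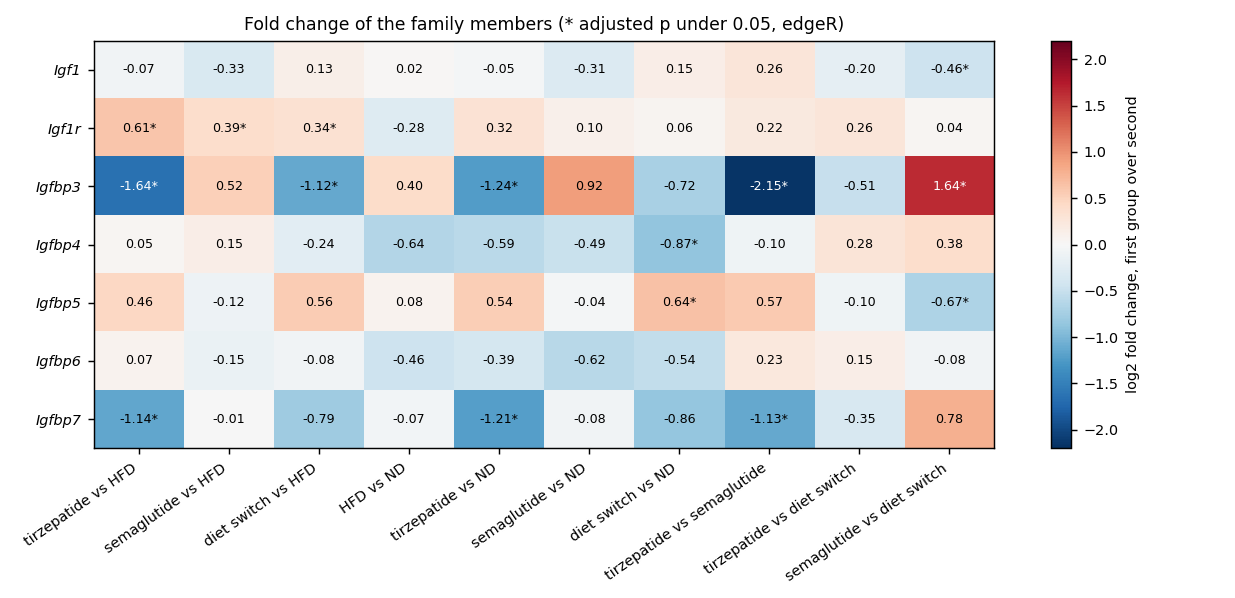
log2 fold changes (colour and printed value, first group over second) of the 7 tested members (rows) in the 10 comparisons (columns), with an asterisk at an edgeR adjusted p under 0.05. The widest values are those of Igfbp3, at -2.15 for tirzepatide against semaglutide and 1.64 for semaglutide against the switch, while Igfbp6 has no asterisk.

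Igf1, the ligand, was lowest with semaglutide. It averaged 302 ± 75.8 CPM with tirzepatide, 253 ± 51.6 with semaglutide, 347 ± 50.4 after the switch, 317 ± 71.1 on HFD and 313 ± 74.8 on ND (SD, n = 8 each). Its median was 263 CPM (142 to 319) with semaglutide, against 333 CPM (270 to 422) after the switch. All 8 semaglutide libraries lay below the switch median, and 5 of 8 below the lowest switch library. Semaglutide over the switch gave a log2 fold change of -0.46 ± 0.16 (SE, edgeR adjusted p = 0.0487). This call was lost on leaving out any 1 of 26 libraries (adjusted p up to 0.119): tirzepatide 2, 4, 5 and 7, semaglutide 1 to 5, 7 and 8, switch 3 to 8, HFD 1 and 5 to 8, and ND 1, 2, 3 and 6. B cell markers, 7 of 7 detected in each group, summed to 86.4 to 1798 CPM with semaglutide, against 49.5 to 306 CPM after the switch. The call was also lost without the 4 B cell-high libraries, at -0.31 ± 0.17 (adjusted p = 0.243), and without the 3 switch libraries apart on the axis, at -0.37 ± 0.18 (adjusted p = 0.297), and likewise with no filter, with only the 2 groups, with limma-voom (-0.38 ± 0.15, adjusted p = 0.0778) and with the axis as a covariate (-0.21 ± 0.15, adjusted p = 0.468). In order of the mean (switch, HFD, ND, tirzepatide, semaglutide), no neighbouring pair passed the test, with adjusted p from 0.307 to 0.967. For tirzepatide against HFD the log2 fold change was -0.07 (95% interval -0.38 to 0.24).

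Igf1r, the receptor for both growth factors, was lowest on HFD. Its median was 121 CPM with tirzepatide (94.3 to 146), against 78.5 CPM (64.6 to 102) on HFD. In 7 of 8 tirzepatide libraries it lay above the highest HFD library. The log2 fold change was 0.61 ± 0.12 (SE, edgeR adjusted p = 2.03e-04), a 1.52-fold higher level, and it passed under each of the 11 other settings and without each library. With semaglutide the median was 99.8 CPM (85.1 to 138) and after the switch 101 CPM (88.3 to 117), and all 8 libraries of either group lay above the HFD median. The log2 fold changes over HFD were 0.39 ± 0.12 for semaglutide (SE, edgeR adjusted p = 0.0443) and 0.34 ± 0.12 for the switch (adjusted p = 0.0275).

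These smaller Igf1r differences had adjusted p close to the threshold, and single libraries moved them across it while the fold changed little. For semaglutide the call was lost without any 1 of HFD 1, 2, 5, 6, 7 or 8, semaglutide 2, 4, 6, 7 or 8, tirzepatide 2, switch 8 or ND 7 (adjusted p up to 0.106, log2 fold change 0.32 to 0.43 over the 40 libraries left out). It was also lost with no filter, with only the 2 groups and with the replicate block (adjusted p = 0.137, 0.0529 and 0.0576). For the switch it was lost without HFD 2, 5, 6 or 7 (adjusted p up to 0.0675, log2 fold change 0.30 to 0.38 over the 40), with no filter (adjusted p = 0.107) and with the axis as a covariate (adjusted p = 0.0647). Without the 3 switch libraries apart on the axis the switch value was 0.40 ± 0.13 (adjusted p = 0.057). On ND the receptor had a median of 100 CPM (76.8 to 112), so HFD and ND overlapped. HFD over ND gave a log2 fold change of -0.28 ± 0.12 (adjusted p = 0.178; limma-voom -0.33 ± 0.10, adjusted p = 0.0383). Tirzepatide over ND gave 0.32 ± 0.12 (adjusted p = 0.0661), with 7 of 8 tirzepatide libraries above the highest ND library, and passed without tirzepatide 8 (adjusted p = 0.0366), with DESeq2 (adjusted p = 0.0394) and with limma-voom (adjusted p = 0.0237). In order of the mean (tirzepatide 122, semaglutide 105, switch 102, ND 97.9 and HFD 80.4 CPM), no neighbours passed, with adjusted p from 0.178 to 0.837.

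Igfbp3, the main carrier of the growth factors in serum, where it forms a complex with the acid-labile subunit, separated the treatments most. It had a median of 4.4 CPM with tirzepatide (2.15 to 8.92), against 22.2 CPM (17.4 to 27.5) with semaglutide. The groups did not overlap: 8 of 8 tirzepatide libraries lay below the lowest semaglutide library. Tirzepatide over semaglutide gave a log2 fold change of -2.15 ± 0.30 (SE, edgeR adjusted p = 6.26e-05), a 4.45-fold lower level, and this was the smallest p of the 15807 genes in that comparison. The sums behind it were 168 counts in the 8 tirzepatide libraries and 697 in the 8 semaglutide libraries, with 4 to 37 and 65 to 118 counts per library.

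Igfbp3 was also lower after the switch than with semaglutide. After the switch the median was 7.76 CPM (2.38 to 11.9), and 8 of 8 semaglutide libraries lay above the highest switch library. Semaglutide over the switch gave a log2 fold change of 1.64 ± 0.29 (SE, edgeR adjusted p = 1.98e-04), and that of tirzepatide over the switch was -0.51 ± 0.31 (adjusted p = 0.483, 95% interval -1.12 to 0.09). HFD held a median of 12.3 CPM (5.18 to 32.1) and ND one of 11.4 CPM (4.65 to 22.6), and these ranges overlapped those of the other groups.

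Against HFD, Igfbp3 fell with tirzepatide and after the switch. The log2 fold change was -1.64 ± 0.30 for tirzepatide (SE, edgeR adjusted p = 1.07e-04), with 6 of 8 tirzepatide libraries below the lowest HFD library, and -1.12 ± 0.29 for the switch (adjusted p = 0.00432), with 2 of 8. For semaglutide over HFD it was 0.52 ± 0.28 (adjusted p = 0.3), although 8 of 8 semaglutide libraries lay above the HFD median. Limma-voom with quality weights gave 0.79 ± 0.22 for that comparison (adjusted p = 0.0151). The switch call was lost without the 3 switch libraries apart on the axis, at -0.997 ± 0.33 (adjusted p = 0.0546), and with the axis as a covariate, at -0.98 ± 0.35 (adjusted p = 0.0882).

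Against ND, Igfbp3 fell with tirzepatide, by a log2 fold change of -1.24 ± 0.30 (SE, edgeR adjusted p = 0.00669). The value for semaglutide was 0.92 ± 0.28 (adjusted p = 0.0683) and for the switch -0.72 ± 0.30 (adjusted p = 0.0886), while HFD over ND gave 0.40 ± 0.28 (adjusted p = 0.498). The semaglutide value passed without ND 5 (1.12, adjusted p = 0.0125) and under 6 of the 11 other settings, and the switch value passed without ND 8 or switch 6 (adjusted p = 0.0428 and 0.0481) and without the muscle-high libraries (-1.23 ± 0.35, adjusted p = 0.0233). In order of the mean (semaglutide 22.2, HFD 15.5, ND 11.7, switch 7.06 and tirzepatide 4.89 CPM), no neighbours passed, with adjusted p from 0.0886 to 0.498.

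Igfbp7, a secreted relative that binds the growth factors weakly and is known from vessel walls, fell with tirzepatide. Its median was 112 CPM with tirzepatide (49 to 267), against 287 CPM (126 to 406) with semaglutide, 297 CPM (128 to 439) on HFD and 271 CPM (195 to 491) on ND. All 8 tirzepatide libraries lay below the median of each of these 3 groups, and 7 of 8 below the lowest ND library. Tirzepatide gave a log2 fold change of -1.14 ± 0.36 over HFD (SE, edgeR adjusted p = 0.0231), -1.21 ± 0.36 over ND (adjusted p = 0.0293) and -1.13 ± 0.36 over semaglutide (adjusted p = 0.0411). After the switch the median was 162 CPM (41.1 to 332), with log2 fold changes of -0.79 ± 0.36 over HFD (adjusted p = 0.107) and -0.86 ± 0.36 over ND (adjusted p = 0.101). In order of the mean (ND, HFD, semaglutide, switch, tirzepatide), no neighbours passed, with adjusted p from 0.143 to 0.995.

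Skeletal muscle markers, 11 of 11 detected in each group, summed to 23.5 to 3253 CPM with tirzepatide, against 17.2 to 438 with semaglutide, 38.3 to 1074 on HFD and 92.7 to 4603 on ND, and their part in the Igfbp7 differences was not tested. With group means removed, Igfbp7 and the mean of these markers had r = -0.07 and rho = -0.01 over the 40 libraries (permutation p = 0.709 and 0.939). Without the 10 muscle-high libraries, of which 4 are tirzepatide's, and thus with fewer libraries, the tirzepatide value was -0.79 ± 0.40 over HFD (adjusted p = 0.222), -0.97 ± 0.41 over ND (adjusted p = 0.182) and -0.79 ± 0.39 over semaglutide (adjusted p = 0.278). With no filter these calls were also lost (adjusted p = 0.0521, 0.0655 and 0.0817), as were those with the axis as a covariate over ND (-0.43 ± 0.32) and over semaglutide (-0.50 ± 0.31), and the one over semaglutide without the B cell-high libraries (adjusted p = 0.0538). Over HFD the call was lost without HFD 2 (adjusted p = 0.0576) or tirzepatide 4 (adjusted p = 0.0518). Over ND it was lost without ND 3 or 4 or tirzepatide 3, 4 or 7 (adjusted p up to 0.0703), and over semaglutide without semaglutide 1, 2, 4, 6 or 7 or tirzepatide 1, 2, 3, 4 or 7 (adjusted p up to 0.084). Without switch 1 the switch values passed over HFD (-1.03, adjusted p = 0.0328) and ND (-1.10, adjusted p = 0.0316), as did semaglutide over the switch (1.02, adjusted p = 0.0479); without switch 2 the value over ND passed (-1.03, adjusted p = 0.049). With limma-voom these 3 passed as well (adjusted p = 0.0305, 0.0309 and 0.0398), and the switch over ND passed with the replicate block (adjusted p = 0.0403). Switch libraries 3, 4 and 7, apart on the axis, held 41.1, 59.7 and 57.6 CPM and the other 5 held 152 to 332 CPM.

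Igfbp4, an inhibitory binding protein that the protease PAPP-A cuts, was highest on ND. It had a median of 870 CPM after the switch (553 to 1386), against 1668 CPM (834 to 2334) on ND. The ND libraries were split: ND 1 to 4 held 1956 to 2334 CPM and ND 5 to 8 held 834 to 1380 CPM. The ND median lies in the gap between them, and ND 5 to 8 lay within the range of HFD. All 8 switch libraries lay below the ND median, and 4 of 8 below the lowest ND library. The switch over ND gave a log2 fold change of -0.87 ± 0.21 (SE, edgeR adjusted p = 0.00478), a 1.83-fold lower level. It was lost without the 3 switch libraries apart on the axis, at -0.65 ± 0.23 (adjusted p = 0.162).

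The other groups on HFD lay below ND in Igfbp4 without passing the test. The median was 1031 CPM with tirzepatide (744 to 1846), 1184 CPM with semaglutide (725 to 1452) and 1089 CPM on HFD (659.5 to 1403). Of the 8 libraries, 7 with tirzepatide, 8 with semaglutide and 8 on HFD lay below the ND median. The log2 fold changes over ND were -0.59 ± 0.21 for tirzepatide (SE, edgeR adjusted p = 0.0604), -0.49 ± 0.21 for semaglutide (adjusted p = 0.233) and -0.64 ± 0.21 for HFD (adjusted p = 0.0703). The HFD value passed with DESeq2 (adjusted p = 0.038), with limma-voom (adjusted p = 0.0246), without the muscle-high libraries (-0.84 ± 0.22, adjusted p = 0.0226) and without ND 5 (-0.73, adjusted p = 0.0249), a B cell-high library that held the lowest ND level, as well as without all B cell-high libraries (adjusted p = 0.0195) and with the axis as a covariate (adjusted p = 0.00853). The tirzepatide value passed with DESeq2, limma-voom and the replicate block (adjusted p = 0.0372, 0.014 and 0.0417), without the B cell-high libraries (adjusted p = 0.0169) and the 3 libraries (adjusted p = 0.045), and without ND 5, 6 or 8 or tirzepatide 1 (adjusted p from 0.0176 to 0.0461). In order of the mean (ND, semaglutide, tirzepatide, HFD, switch), no neighbours passed, with adjusted p from 0.233 to 0.902.

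Igfbp5, a binding protein that also attaches to the extracellular matrix, was highest after the switch. Its median was 493.1 CPM after the switch (298 to 809.5), against 305 CPM (132 to 453) with semaglutide and 327 CPM (178 to 421) on ND. All 8 semaglutide libraries lay below the switch median, and 5 of 8 switch libraries lay above the highest ND library. The log2 fold change was 0.64 ± 0.22 for the switch over ND (SE, edgeR adjusted p = 0.0391) and -0.67 ± 0.22 for semaglutide over the switch (adjusted p = 0.0314). The first was lost without any 1 of ND 1 to 5 or switch 3, 4, 5 or 7 (adjusted p up to 0.111), and the second without semaglutide 1, 3, 4 or 8 or switch 4, 5 or 7 (adjusted p up to 0.0932). Without the 4 B cell-high libraries, semaglutide over the switch was -0.43 ± 0.21 (adjusted p = 0.208). Without the 3 libraries apart on the axis these values were 0.58 ± 0.25 (adjusted p = 0.249) and -0.62 ± 0.25 (adjusted p = 0.196). Both calls were also lost with no filter (adjusted p = 0.0797 and 0.0649), with limma-voom (0.52 ± 0.21, adjusted p = 0.0918, and -0.49 ± 0.21, adjusted p = 0.115) and with the axis as a covariate (adjusted p = 0.543 and 0.216). The first was lost without the muscle-high libraries (0.77 ± 0.26, adjusted p = 0.0514) and the second with only the 2 groups (adjusted p = 0.0515).

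With tirzepatide Igfbp5 had a median of 445 CPM (295 to 617), against 334 CPM (162 to 555) on HFD. In 7 of 8 tirzepatide libraries it lay above the HFD median. The log2 fold change over HFD was 0.46 ± 0.22 for tirzepatide (SE, edgeR adjusted p = 0.126) and 0.56 ± 0.22 for the switch (adjusted p = 0.053). Tirzepatide over semaglutide gave 0.57 ± 0.22 (adjusted p = 0.0779). The switch value over HFD passed without any 1 of 8 libraries (switch 2, 6 or 8, tirzepatide 1, semaglutide 1, HFD 4 or 8, ND 5; lowest adjusted p = 0.02), tirzepatide over HFD without HFD 4 (adjusted p = 0.0476) or with limma-voom (adjusted p = 0.0371) and tirzepatide over semaglutide without semaglutide 6 (adjusted p = 0.0463). The switch value over HFD also passed with DESeq2's size factors, DESeq2 and limma-voom (adjusted p = 0.0496, 0.0375 and 0.0428), and without the muscle-high (0.76 ± 0.25, adjusted p = 0.0336) or B cell-high libraries (0.54 ± 0.19, adjusted p = 0.0278). In order of the mean (switch, tirzepatide, HFD, ND, semaglutide), no neighbours passed, with adjusted p from 0.126 to 0.967.

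Igfbp6, a binding protein that prefers IGF2, had the widest spread within groups of the 7 tested members. Its median was 68.4 CPM with tirzepatide (14.2 to 164), 61.2 with semaglutide (36.3 to 121), 52.9 after the switch (23.1 to 166), 72.7 on HFD (35.8 to 157) and 107 on ND (59.5 to 157). The ranges of the 5 groups overlapped. No comparison passed, with edgeR adjusted p from 0.375 to 0.922, and the widest log2 fold change was that of semaglutide over ND, at -0.62 (95% interval -1.39 to 0.16). The SD of log2 CPM within groups was 0.83 for Igfbp6, against 0.19 for Igf1r, the member with the narrowest spread.

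As a share of the counts of Igfbp2 to Igfbp7, Igfbp4 made up most of the binding protein transcripts in each group, from 54.4% after the switch to 68.1% on ND. Igfbp5 took 27.1 ± 8.2% with tirzepatide, 16.8 ± 4.5% with semaglutide, 31.9 ± 11% after the switch, 19.2 ± 6.1% on HFD and 14.2 ± 4.7% on ND (SD, n = 8 each). Igfbp7 took 7.13 ± 4.1%, 14.6 ± 3.8%, 9.08 ± 4.6%, 15.8 ± 5.3% and 12.6 ± 3.5% in the same order of groups. The carrier Igfbp3 was a small part, at 0.293 ± 0.16% with tirzepatide, 1.26 ± 0.42% with semaglutide, 0.458 ± 0.24% after the switch, 0.908 ± 0.52% on HFD and 0.564 ± 0.47% on ND. The sum of the binding proteins averaged 1774 ± 317 CPM with tirzepatide, 1855 ± 369 with semaglutide, 1640 ± 442 after the switch, 1771 ± 403 on HFD and 2381 ± 655 on ND. These shares are a description and were not tested.

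**Figure D3:**
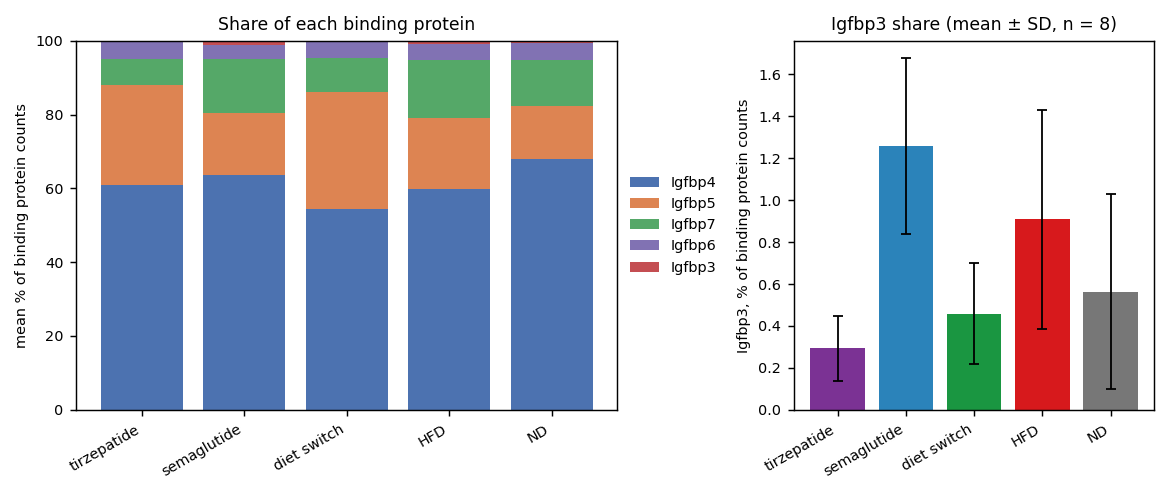
Left, mean percent of the summed Igfbp2 to Igfbp7 counts (y axis) taken by each binding protein (stacked colours) in the 5 groups (x axis). Right, mean percent taken by Igfbp3, with error bars of ± SD, n = 8; it is 0.293% with tirzepatide and 1.26% with semaglutide.

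Of 72 genes in 6 lists around the pathway, 57 were tested. With tirzepatide against HFD, 6 rose and 10 fell (28.1% called, against 20.5% of all genes), with semaglutide 3 rose and 4 fell (12.3%, against 4.15%), and after the switch 9 rose and 7 fell (28.1%, against 23.8%). HFD against ND had 7 that rose and 1 that fell (14%, against 4.5%), and 5 called without the muscle-high libraries. The counts against HFD ranged, over the other settings, from 12 to 21 for tirzepatide, 4 to 9 for semaglutide and 6 to 21 for the switch, the lowest switch count being with the axis as a covariate and the next, 7, without the 3 libraries apart on it. The semaglutide count was 4 with no filter, with the replicate block, and without any 1 of HFD 1, 2, 5, 6 or 8 or semaglutide 2 or 3.

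The signalling list held 18 tested genes. With tirzepatide against HFD, 3 rose and 2 fell (27.8%, against 20.5% of all genes), and the median log2 fold change was 0.08 (0.03 over all genes). Irs1, the adaptor that both the insulin and IGF1 receptors phosphorylate, had 41.6 ± 14.9 CPM with tirzepatide, 39.6 ± 14.9 with semaglutide and 33.6 ± 7.5 after the switch, against 22.1 ± 3.3 on HFD (SD, n = 8 each). It rose against HFD in these 3 comparisons, by 0.92 ± 0.20, 0.83 ± 0.20 and 0.60 ± 0.20 on the log2 scale (SE, edgeR adjusted p = 9.02e-04, 0.00871 and 0.0248). The insulin receptor Insr rose by 0.76 ± 0.22 with tirzepatide (adjusted p = 0.0111) and by 1.09 ± 0.22 after the switch (adjusted p = 3.30e-04). Pik3r1, the regulatory subunit of phosphatidylinositol 3-kinase, rose with tirzepatide (0.96 ± 0.18, adjusted p = 1.76e-04) and after the switch (0.78 ± 0.18, adjusted p = 0.00165), and fell on HFD against ND (-0.79 ± 0.18, adjusted p = 0.00449).

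Other signalling genes fell. Igf2r, the receptor that clears IGF2 into lysosomes, had 47.4 ± 11.2 CPM with tirzepatide against 74.8 ± 12.1 CPM on HFD (SD, n = 8 each), a log2 fold change of -0.66 ± 0.15 (SE, edgeR adjusted p = 0.00134). The kinase Akt1 fell with tirzepatide (-0.61 ± 0.20, adjusted p = 0.025) and after the switch (-0.73 ± 0.20, adjusted p = 0.00612), and the adaptor Shc1 fell after the switch (-0.58 ± 0.17, adjusted p = 0.0116). After the switch 4 of the 18 rose and 2 fell (33.3%, against 23.8% of all genes), and with semaglutide 1 rose and none fell by edgeR (5.56%, against 4.15%). On HFD against ND, none rose and 1 fell (5.56%, against 4.5%).

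Of 11 tested genes for partners and proteases of the binding proteins, 4 fell and none rose with tirzepatide, 4 fell and none rose with semaglutide, and 3 fell and none rose after the switch, each against HFD, while 3 rose and none fell on HFD against ND. These are 36.4%, 36.4%, 27.3% and 27.3% of the list, against 20.5%, 4.15%, 23.8% and 4.5% of all genes, and the median log2 fold changes were -0.53, -0.19, -0.46 and 0.26. Igfals, the acid-labile subunit that joins Igfbp3 in serum, had 18.9 ± 6.7 CPM with tirzepatide, 23.1 ± 6.2 with semaglutide and 16 ± 11.3 after the switch, against 47.6 ± 13.8 on HFD and 42.9 ± 21.7 on ND (SD, n = 8 each). Its log2 fold changes over HFD were -1.34 ± 0.31, -1.04 ± 0.30 and -1.57 ± 0.31 (SE, edgeR adjusted p = 0.00188, 0.0403 and 3.72e-04).

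Adam12, a metalloprotease known in humans to cut IGFBP3 and IGFBP5, had 9.91 ± 5.4 CPM with tirzepatide and 7.09 ± 3.6 with semaglutide, against 27.7 ± 11.2 on HFD (SD, n = 8 each). It fell by 1.46 ± 0.32 with tirzepatide (SE, edgeR adjusted p = 0.00101) and fell by 1.97 ± 0.33 with semaglutide (adjusted p = 1.55e-04) on the log2 scale, and rose by 1.59 ± 0.32 on HFD against ND (adjusted p = 0.00117). The lysosomal protease Ctsd fell with tirzepatide (-0.64 ± 0.16), semaglutide (-0.91 ± 0.16) and the switch (-0.46 ± 0.15) and rose on HFD (0.50 ± 0.15). The serine protease Htra3 fell with tirzepatide (-0.55 ± 0.20) and the switch (-0.83 ± 0.20) and rose on HFD (0.73 ± 0.20), and Htra1 fell with semaglutide (-0.53 ± 0.16). Pappa, the protease of Igfbp4, had 138 counts over the 40 libraries and was not tested, and Igfbp1 had 1 count.

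Of 9 tested genes of the growth hormone axis, 1 rose with tirzepatide, none with semaglutide and 2 after the switch against HFD, and none fell by edgeR in these comparisons (11.1%, 0% and 22.2%, against 20.5%, 4.15% and 23.8% of all genes). Socs2, an inhibitor of growth hormone signalling, had 37.6 ± 8.7 CPM with tirzepatide and 43.8 ± 22.7 after the switch, against 22.2 ± 6.3 on HFD (SD, n = 8 each), with log2 fold changes of 0.76 ± 0.26 (SE, edgeR adjusted p = 0.0326) and 0.97 ± 0.26 (adjusted p = 0.00552). Cish, of the same family, rose after the switch by 2.604 ± 0.75 (adjusted p = 0.0105), where its libraries ran from 0.458 to 67.1 CPM.

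Of 13 tested imprinted growth genes, 2 rose and 1 fell with tirzepatide, 2 rose and none fell with semaglutide, and 3 rose and 1 fell after the switch, against HFD, while 3 rose and none fell on HFD against ND. These are 23.1%, 15.4%, 30.8% and 23.1% of the list, against 20.5%, 4.15%, 23.8% and 4.5% of all genes. Cdkn1c, a cell cycle inhibitor, had 22.9 ± 5 CPM with tirzepatide and 21.2 ± 7.6 after the switch, against 7.6 ± 3.2 on HFD (SD, n = 8 each), with log2 fold changes of 1.59 ± 0.26 (SE, edgeR adjusted p = 1.71e-05) and 1.47 ± 0.26 (adjusted p = 5.81e-05). Nnat rose with tirzepatide (1.24 ± 0.22), semaglutide (0.82 ± 0.21) and the switch (0.97 ± 0.21). Mest, a marker of fat expansion, Peg3 and Zim1 rose on HFD (2.17 ± 0.46, 2.06 ± 0.44 and 2.22 ± 0.61), and Mest fell with tirzepatide (-2.13 ± 0.46) and the switch (-2.62 ± 0.47).

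The CCN proteins, matricellular proteins whose first domain resembles that of the binding proteins, had 4 tested genes on their list. With tirzepatide 3 of the 4 fell and none rose against HFD, where 20.5% of all genes were called. Ccn1 had 3.62 ± 3 CPM with tirzepatide against 15.2 ± 4.5 on HFD (SD, n = 8 each), a log2 fold change of -2.03 ± 0.32 (SE, edgeR adjusted p = 1.34e-05). Ccn2 fell by 2.05 ± 0.46 and Ccn5 by 1.45 ± 0.40 on that scale (adjusted p = 0.00142 and 0.00766). After the switch Ccn2 fell, 1 of 4 where 23.8% of all genes were called (-1.28 ± 0.44, adjusted p = 0.0306), and with semaglutide none of the 4 passed. The 2 tested mRNA-binding proteins named for IGF2, Igf2bp2 and Igf2bp3, passed in none of these 4 comparisons.

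**Figure D4:**
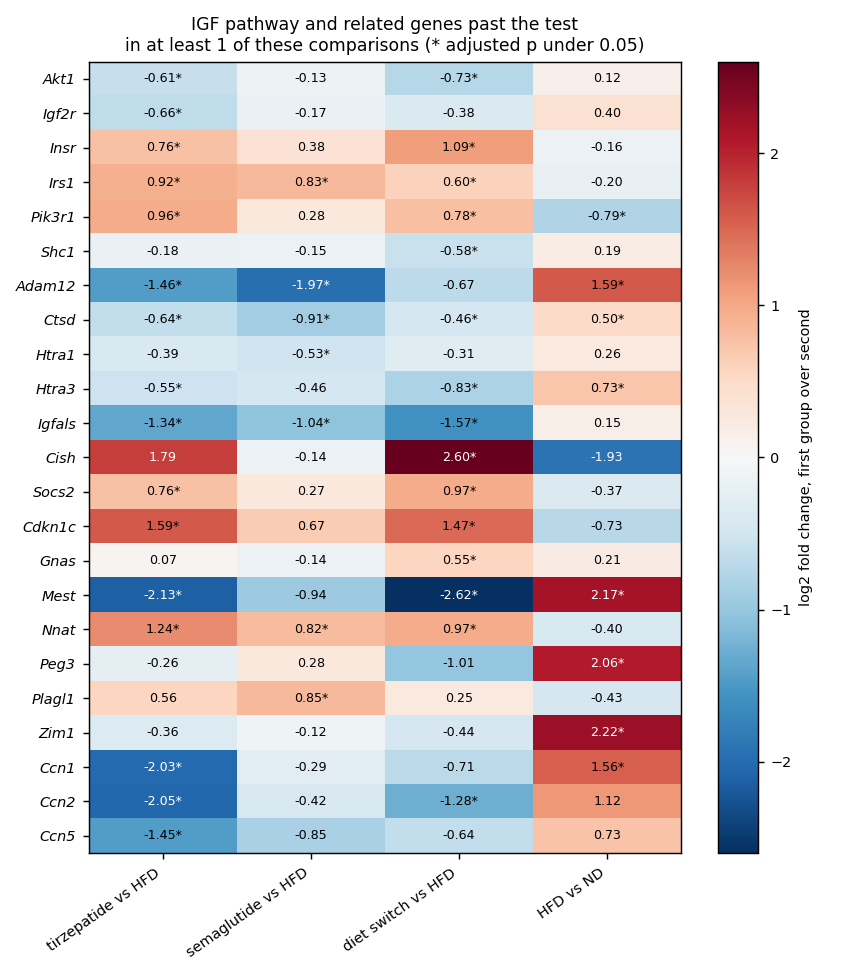
log2 fold changes (colour and printed value, first group over second) of the named pathway genes (rows; up to 4 per list and comparison that passed, by smallest p) in the 4 comparisons shown (columns), with an asterisk at an edgeR adjusted p under 0.05. Irs1, Ctsd, Igfals and Nnat have an asterisk against HFD in all 3 treatments.

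Within groups, Igfbp4 and Igfbp6 varied together. With group means removed, Pearson's r over the 40 libraries was 0.55 (permutation p = 2.70e-04, adjusted over 21 pairs 0.00567) and Spearman's rho 0.64 (permutation p = 3.00e-05, adjusted 6.30e-04). Pearson's r was 0.5 without the 2 libraries farthest from the median of Igfbp4, and positive in 5 of 5 groups. Igfbp4 and Igfbp6 each also varied with the axis of within-group variation (r = -0.72 and -0.68), whose part in this pair was not tested. The other 20 pairs of tested members did not pass, with adjusted permutation p of at least 0.0646 for r.

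Igfbp6 followed the markers of adipose progenitors and fibroblasts, 12 genes that include Pdgfra, Dcn and Pi16. With group means removed, r was 0.86 and rho 0.88 over the 40 libraries (permutation p = 1e-05 for both, the smallest that the permutations can give; adjusted over 77 relations 3.85e-04 and 1.92e-04), and r was 0.82 without the 2 farthest libraries. Igfbp6 also followed macrophage markers (r = 0.68, rho = 0.62, permutation p = 8.00e-05 and 2.40e-04, adjusted 0.00123 and 0.0037). Igfbp5 followed the progenitor and fibroblast markers less closely (r = 0.56, rho = 0.55, permutation p = 1.30e-04 and 4.70e-04, adjusted 0.00167 and 0.00603), and Igf1 followed the blood endothelial ones (r = 0.52, rho = 0.49, permutation p = 0.00112 and 0.00163, adjusted 0.00958 and 0.0157). Without the 2 farthest libraries these were 0.57 for Igfbp6 with macrophage markers, 0.64 for Igfbp5 and 0.44 for Igf1. Igf1r also followed the progenitor and fibroblast markers (r = 0.46, rho = 0.46, adjusted permutation p = 0.0148 and 0.0317). With pericyte and smooth muscle markers its r was 0.49 and rho 0.45 (adjusted 0.0205 and 0.0475). Other marker relations passed for r but not rho. They were Igf1r with skeletal muscle (r = 0.44), Igfbp4 with adipocyte (0.49), Igfbp5 with Schwann cell (0.47), and Igfbp4, Igfbp5 and Igfbp6 with B cell markers (-0.38, -0.54 and -0.33). Igfbp3 had adjusted permutation p of at least 0.3 with every score.

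Beside the group differences above, the progenitor and fibroblast score averaged 6.78 ± 0.43 log2 CPM with tirzepatide, 6.83 ± 0.22 with semaglutide, 6.94 ± 0.46 after the switch, 7.00 ± 0.27 on HFD and 6.99 ± 0.26 on ND (SD, n = 8 each). The 12 markers were detected in each group, with summed levels of 2860 to 6305, 2621 to 5054, 3461 to 10526, 3861 to 6484 and 2955 to 6902 CPM in the same order. Single markers passed the edgeR test in both directions. After the switch Pdgfra, Dcn and Lum rose and Dpp4 and Col15a1 fell against HFD, while Lum and Col3a1 rose against ND. Dpp4 was higher and Pdgfra, Lum and Col3a1 lower with semaglutide than after the switch. Against HFD, Pdgfra rose and Col15a1 fell with tirzepatide, and Col15a1 fell with semaglutide. Col15a1 also fell with tirzepatide against ND. The part of cell composition in the member differences was not tested.

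The axis of within-group variation was drawn from all tested genes, the tested members included, so its relation to members is a description. Over the 40 libraries with group means removed, r with the axis was -0.72 for Igfbp4, -0.68 for Igfbp6, -0.64 for Igfbp7, 0.56 for Igf1, and -0.12 for both Igfbp3 and Igf1r. The axis score averaged 15.2 ± 19 with tirzepatide, -7.87 ± 14.6 with semaglutide, 27 ± 42.4 after the switch, -17.8 ± 19 on HFD and -16.5 ± 19.4 on ND (SD, n = 8 each). With the axis as a covariate, Igfbp7 for tirzepatide over HFD was -0.29 ± 0.33 (edgeR adjusted p = 0.626) and Igfbp4 for the switch over ND was -0.33 ± 0.19 (adjusted p = 0.567).

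**Figure D5:**
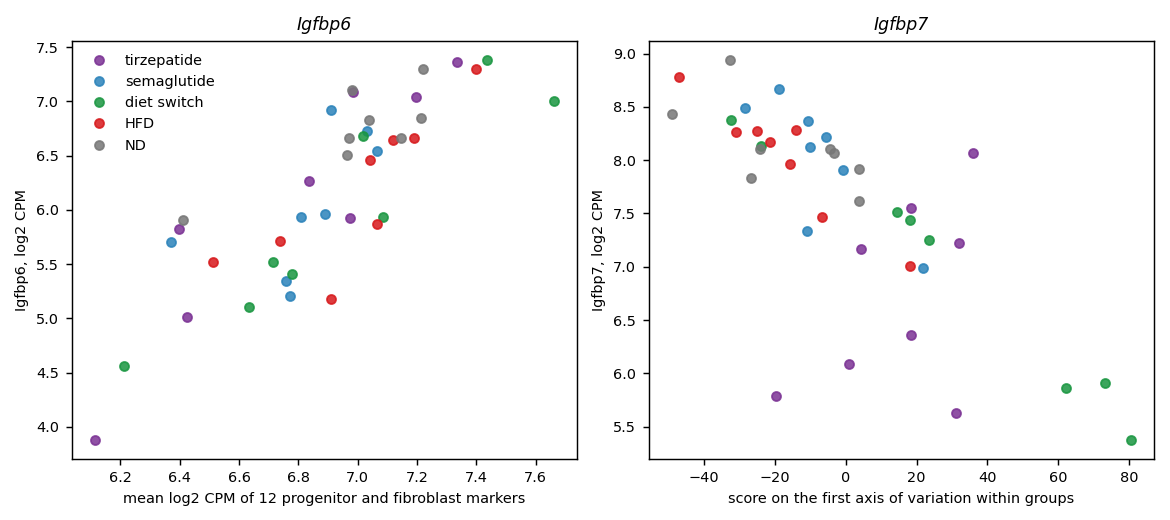
Left, log2 CPM of Igfbp6 (y axis) against the mean log2 CPM of 12 progenitor and fibroblast markers (x axis). Right, log2 CPM of Igfbp7 (y axis) against the score on the axis of within-group variation (x axis). Points are the 40 libraries coloured by group, and the 3 switch libraries that score above 50 on the axis hold 41.1 to 59.7 CPM of Igfbp7.

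The genes most like each member in level over the 40 libraries, by Pearson's r of log2 CPM with group differences kept, are given as a description. They were Ecm1 (0.93), Timp2 (0.92) and Plac9 (0.89) for Igfbp6, and the predicted gene Gm6266 (0.93) with Uqcrfs1 (0.93) and Cox7c (0.93), both of the mitochondrial respiratory chain, for Igfbp7. For Igfbp4 they were Gstm1 (0.88), Tmem223 (0.84) and Smim1 (0.82), for Igfbp5 Nav1 (0.83), Rhoj (0.79) and Atp2b1 (0.78), and for Igfbp3 Usp38 (0.78), Abhd2 (0.77) and Tmsb4x (0.76). For Igf1 they were Hspa9 (0.77), Arhgap29 (0.76) and Nrp1 (0.76), and for Igf1r Tmod2 (0.70), Ebf2 (0.70) and Fgf2 (0.69).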

How the data were processed

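RNA of mouse sWAT was extracted with Nucleozol, made into Lexogen QuantSeq libraries and sequenced on an Illumina HiSeq, per the labels' protocols. The authors deposited raw counts per gene symbol for 40 libraries; the build was mm10, per the submitters' processing notes, while aligner, counter and annotation are not given here by labels or headers. A second, normalized table was not used; 16 of its columns match no sample. Of 34843 symbols, 630 had no count, and filterByExpr kept 15807, which hold 99.4% of the counts. Counts were fitted with edgeR 4.0.16 (TMM, robust quasi-likelihood, 40 libraries in 1 fit, 1 mean per group) in R 4.3.3, with Benjamini-Hochberg adjustment over the genes tested and a threshold of 0.05; the procedure was tested on simulated data. The SE is the size of the log2 fold change over the root of F. Log2 CPM used a prior count of 2; relations within groups used 100000 two-sided permutations of libraries within groups. Named genes were the 9 members, up to 4 genes past the threshold per list and comparison, genes overlapping a member, and the 3 most alike genes per member. Alternatives were DESeq2 1.42.0, its size factors, 2 filters, only the groups compared, a replicate block, limma-voom (limma 3.58.1), and each library left out; 4 more were chosen after seeing the data. The members and lists were chosen with earlier results of these data known.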

Additional observations from a re-analysis of the deposited data

Results flagged for a closer look

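Of 35 groups of 8 libraries examined (7 tested members in 5 groups), 2 held a library far from the others, where chance gives about 1 in 20. Igf1 stood at 7.15 log2 CPM (142 CPM) in semaglutide library 1, against 7.84 in the nearest library of that group, a gap of 0.587 of the group's range. Igfbp4 stood at 9.504 log2 CPM (725 CPM) in semaglutide library 3, against 10.1 in the nearest, a gap of 0.599 of the range. Both libraries are among the 4 that are high in B cell markers.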

How the results depend on the processing

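Of 15 called member differences, 5 kept their call under all 11 other settings (Igf1r for tirzepatide over HFD; Igfbp3 for tirzepatide over HFD, ND and semaglutide and for semaglutide over the switch) and 7 without each library; of 55 not called, 43 and 44 stayed so. The sign differed under some setting in 26 of the 55, none of them called there. Members called of 7 moved as follows, the cause not tested. HFD over ND gave 1 with DESeq2, 2 with limma-voom, and 1 without the muscle-high libraries, without the B cell-high ones or with the axis. Tirzepatide over HFD lost Igfbp7 with no filter, without the muscle-high libraries or with the axis, and gained Igfbp5 with limma-voom. Tirzepatide over ND gave 4 with DESeq2 or limma-voom and 1 with no filter, without the muscle-high libraries or with the axis. It gained Igfbp4 with the replicate block, without the B cell-high libraries or without the 3 libraries. Semaglutide over HFD gave 0 with no filter, only the 2 groups or the replicate block and 2 with limma-voom; over ND it gave 1 with DESeq2, the 2 groups, the block, limma-voom, without the 3 libraries or with the axis. The switch over HFD gave 1 with no filter, 3 with DESeq2, its size factors or without the muscle-high or B cell-high libraries, 4 with limma-voom and 0 without the 3 libraries or with the axis; over ND it gave 1 with no filter and 0 without the 3 libraries or with the axis. Tirzepatide over semaglutide gave 1 with no filter, without the muscle-high or B cell-high libraries or with the axis. Semaglutide over the switch gave 1 with no filter, the 2 groups, without the B cell-high libraries, without the 3 libraries or with the axis, and 2 with limma-voom, where Igf1 and Igfbp5 were lost and Igfbp7 gained. For the switch over ND, limma-voom lost Igfbp5 and gained Igfbp7, and leaving out the muscle-high libraries lost Igfbp5 and gained Igfbp3, so the count stayed at 2. Leaving out each library gave 2 to 4 for tirzepatide, 0 to 1 for semaglutide and 1 to 3 for the switch over HFD; 1 to 3, 0 to 1 and 1 to 3 over ND; 0 to 1 for HFD over ND; 1 to 2 for tirzepatide over semaglutide, 0 to 0 over the switch; and 1 to 4 for semaglutide over the switch. Calls over all genes moved by over 1.5 times as follows. The switch over HFD gave 3759, but 1148 without the 3 libraries and 801 with the axis; over ND 2338, but 1470 with the 2 groups, 112 and 36. Tirzepatide over HFD gave 3246, but 1666 without the muscle-high libraries and 1885 with the axis; over ND 1591, but 2451 with limma-voom, 542 and 448; over semaglutide 1584, but 382 without the muscle-high and 959 without the B cell-high libraries; over the switch 63, but 231 with DESeq2, 120 with limma-voom, 99 with the block, 1 with the 2 groups, 347 without the 3 libraries, 123 without the B cell-high and 6 without the muscle-high libraries. Semaglutide over HFD gave 656, but 1013 with the 2 groups, 1263 with limma-voom and 412 without the B cell-high libraries; over ND 417, but 267 with no filter and 952 with limma-voom; over the switch 2101, but 1213 with the 2 groups, 1230 without the B cell-high libraries, 276 without the 3 libraries and 504 with the axis. HFD over ND gave 712, but 1289 with limma-voom. Single libraries moved them as far: tirzepatide over ND to 1046 without ND 4 (also without tirzepatide 4), over the switch to 35 without tirzepatide 3 and 357 without tirzepatide 8 (also up without tirzepatide 5 or switch 2); semaglutide over HFD to 437 without HFD 5, over ND to 256 without ND 4 (also down without ND 1 or semaglutide 3) and 853 without ND 5, over the switch to 1367 without switch 3 (also without switch 7); the switch over ND to 1321 without switch 3 (also without switch 4 or ND 4). The shares of all genes called move with these counts. Same-numbered libraries of different groups had r of -0.349 to 0.259 (median 0.03), with 18 of 80 pairs above 0.1. For 11 of 40 libraries the best match in another group had the same number. Neither count was set beside what chance or differently numbered libraries would give, so whether the numbers pair samples is not known. With the replicate block, Igf1r for semaglutide over HFD was 0.39 ± 0.12 (adjusted p = 0.0576). Igfbp4 for tirzepatide over ND, Igfbp3 for semaglutide over ND and Igfbp7 for the switch over ND passed with it (adjusted p = 0.0417, 0.0463 and 0.0403). The axis was scored with group differences kept, so as a covariate it can remove part of them. Depth limits Igfbp3, with 4 counts in the lowest library, and leaves Igf2 and Igfbp2 untested.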
